A study of Mus musculus with 15 samples.

Results

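Semaphorins, plexins and neuropilins form one ligand and receptor system, and its 31 listed mouse genes were followed here across thalamic cell populations sorted from embryos. The genes are 20 semaphorins, 9 plexins and 2 neuropilins. They were taken as the array rows whose annotation named exactly 1 listed symbol, with the row of highest mean kept per gene. All 31 were found among 22180 genes, and Plxna1 and Plxnb1 had 2 rows each. Sema3d fell below the low-signal filter, a mean of 5.07 over all arrays, so that 30 of the 31 genes were tested. The mean log2 signal of Sema3d was 4.87 in red, 5.01 in double labelled and 4.90 in green cells at E18.5, and 4.46 in red and 4.43 in green cells at E14.5.

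The cells came from embryonic thalamus of mice on a C57BL/6 background with the genotype Gbx2CreER-IRES-EGFP/+::R26lsl-tdTomato/+, which every group shared. In these animals the Gbx2 locus drives both a tamoxifen-dependent Cre and EGFP, and tdTomato at the R26 locus stays on in a cell and its descendants once Cre has acted. The dams of the E18.5 groups were given 4 mg tamoxifen at E9 and those of the E14.5 groups the same dose at E9.5, so that stage and tamoxifen day cannot be told apart. There were 5 groups of 3 biological replicates, 15 arrays in all. Embryos of E18.5 gave red, green and double labelled cells, and those of E14.5 gave red cells and green cells only. The sort gates are not given in the sources used here. All groups carry 1 modified Gbx2 allele, and no group without it was measured.

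Semaphorins are secreted or membrane-bound guidance cues that steer growing axons and migrating neurons. Plexins are their main receptors and act inside the cell on small GTPases and on the cytoskeleton, while neuropilins bind most class 3 semaphorins at the cell surface and need a plexin partner to signal. Membrane-bound classes 4 to 7 generally bind plexins directly, and some of them can also act as receptors. In the developing thalamus this system is known for its part in sorting thalamocortical axons on their way to the cortex.

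Promoter sequences are shown for Nrp2, Sema6d and Sema3a, the genes with the smallest adjusted p in comparisons of populations of one stage. Each is the 250 bases before the RefSeq start on the plus strand of GRCm38.p6, written 5′ to 3′. Capitals mark matches to GGGCGG, the GC box, on either strand. The Nrp2 window is chr1:62703067-62703316, the Sema6d window is chr2:124089719-124089968, the first of 2 windows of that gene, and the Sema3a window is chr5:13396534-13396783. The Sema3a window lies inside the annotated gene span of chr5:13124822-13603485. The Sema6d span starts at 124089943, so the last bases of that window lie inside it.
Nrp2: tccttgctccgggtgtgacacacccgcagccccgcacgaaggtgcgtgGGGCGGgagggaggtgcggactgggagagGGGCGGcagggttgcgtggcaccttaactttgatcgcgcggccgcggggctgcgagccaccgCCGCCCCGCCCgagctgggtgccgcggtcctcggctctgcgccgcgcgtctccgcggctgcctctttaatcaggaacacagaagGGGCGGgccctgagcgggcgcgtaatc
Sema6d: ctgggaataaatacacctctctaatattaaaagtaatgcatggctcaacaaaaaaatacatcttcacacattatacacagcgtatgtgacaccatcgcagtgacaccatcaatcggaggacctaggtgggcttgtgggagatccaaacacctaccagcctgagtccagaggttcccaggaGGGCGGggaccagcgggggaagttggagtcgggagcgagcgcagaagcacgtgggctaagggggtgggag
Sema3a: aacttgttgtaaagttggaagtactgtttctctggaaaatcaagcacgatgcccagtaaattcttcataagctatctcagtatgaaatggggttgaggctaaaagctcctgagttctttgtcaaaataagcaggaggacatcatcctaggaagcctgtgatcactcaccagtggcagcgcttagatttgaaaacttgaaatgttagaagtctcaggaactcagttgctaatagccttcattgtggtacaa

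The Nrp2 window held 5 matches to GGGCGG, 2 of them overlapping, and had a GC content of 72.4%. The Sema6d window held 1 match at a GC content of 52.4%, and the Sema3a window, inside the gene span, held 0 at 40.8%. TAATTA, a core motif bound by homeodomain proteins and its own reverse complement, was in none of these windows. Among the 37 windows of the 26 listed genes that the promoter table holds, 27 held GGGCGG and 0 held TAATTA. Over all 32851 windows of this length the shares were 32.7% and 4.8%.

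Several facts of the series bear on the values that follow. The mean of all signals was 6.17 to 6.19 in the E18.5 arrays and 5.63 to 5.65 in the E14.5 arrays, so comparisons between stages are given both as deposited and after quantile normalization. The SD of all signals was 1.34 in E18.5 red replicate 1 and 1.31 in E18.5 double labelled replicate 1, whereas it was 1.44 to 1.51 in the rest of that stage. Correlation with group mates was 0.937 and 0.940 for these 2 narrow-range arrays, 0.950 to 0.985 for the rest of E18.5, and 0.984 to 0.992 at E14.5. At E18.5, 43.6% of tested genes had exactly the same value in at least 2 of the 9 arrays, against 0.9% in the 6 arrays at E14.5. This held for 14 and 1 of the 30 tested genes of the system. Neuronal markers had a list mean of 9.54 to 10.57 over the arrays and progenitor markers one of 6.90 to 7.50, while lists for endothelial cells, microglia, oligodendrocyte lineage, astrocytes and meninges had list means of 4.67 to 6.08. Gbx2, whose locus drives the labels, had a signal of 5.45 to 7.16 in red, 8.0 to 8.5 in double labelled and 8.23 to 8.55 in green cells at E18.5. Bulk signals cannot tell fewer cells of a type from less RNA per cell.

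**Figure D1:**
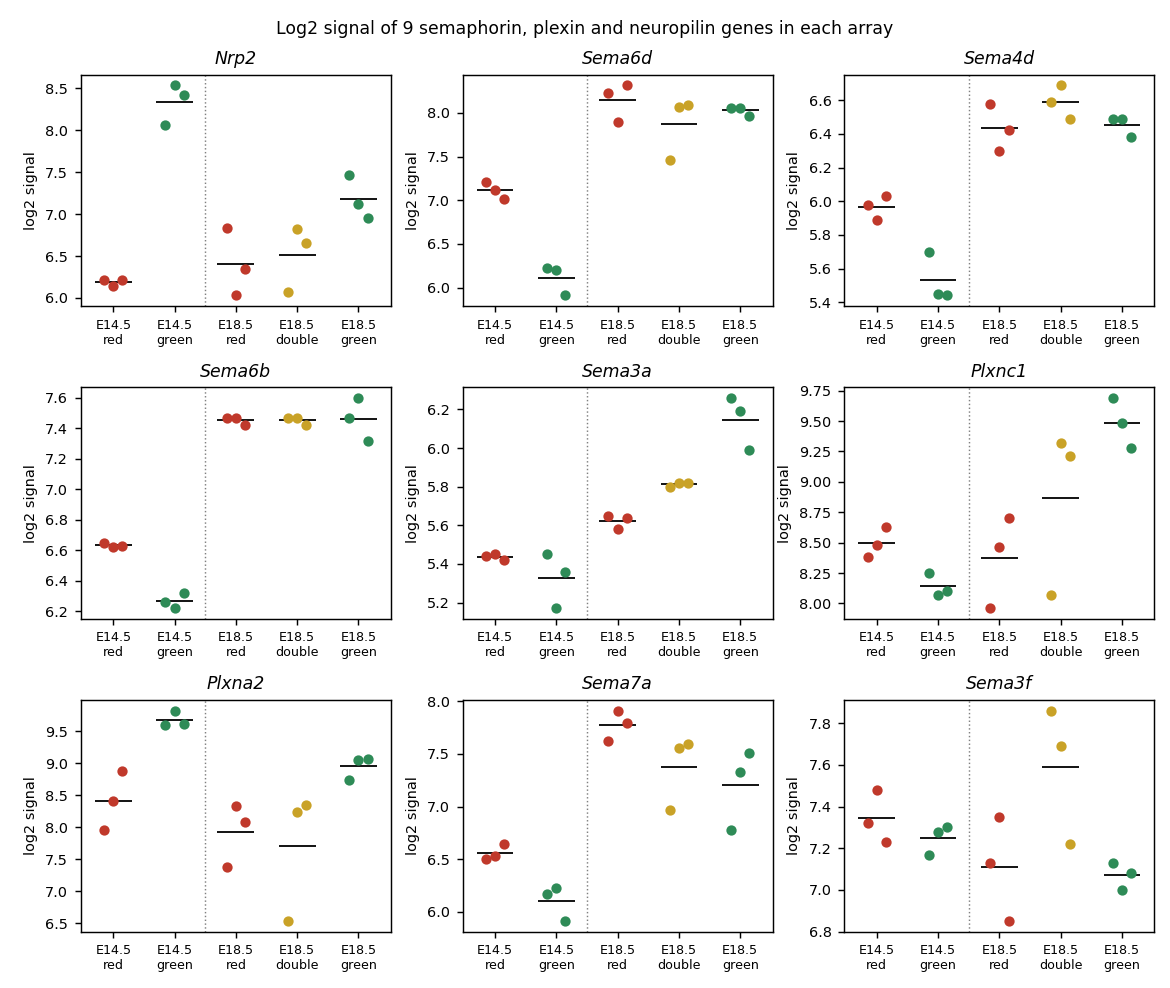
Log2 signal (vertical axis of each panel) of 9 genes in each of the 15 arrays, by stage and colour. Points are arrays and lines are group means of 3 arrays. The Nrp2 signal was 6.14 to 6.22 in E14.5 red and 8.06 to 8.54 in E14.5 green arrays.

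At E14.5 the receptor gene Nrp2 was lower in red than in green cells by 4.43-fold, and 3 semaphorin genes, Sema6d, Sema4d and Sema6b, were higher in red cells by 2.01-fold, 1.35-fold and 1.29-fold. These 4 of 30 tested genes passed the threshold of adjusted p 0.05 in limma, while 3.52% of all 16635 tested genes did. Red and green arrays did not overlap for 15 of the 30 genes, against 27.9% of all tested genes. The median red minus green difference was 0.05 over the 30 genes and 0 over all tested genes. By role, the threshold was passed by 3 of 19 semaphorins, 0 of 9 plexins and 1 of 2 neuropilins. Unadjusted p was under 0.05 for 11 of the 30, among them 2 of the plexins, and for 11.9% of all tested genes.

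Nrp2 encodes the neuropilin that binds Sema3f and related class 3 ligands. Its log2 signal was 6.22, 6.14 and 6.21 in the E14.5 red arrays and 8.06, 8.54 and 8.42 in the green arrays. Every red array lay more than 1 log2 unit below every green array, and the red arrays differed from each other by less than 0.1. The difference was -2.15 ± 0.22 (SE, n = 3 and 3), with a 95% interval of -2.63 to -1.67 and a limma adjusted p of 0.00011. With each of the 6 arrays left out in turn, adjusted p stayed between 0.00015 and 0.0014. Nrp1, the neuropilin that binds Sema3a, had 5.25, 5.28 and 5.09 in red and 5.17, 5.69 and 5.82 in green arrays, which overlapped. Its difference of -0.35 had an interval of -0.97 to 0.26.

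Sema6d, a transmembrane ligand of class A plexins, read 7.21, 7.12 and 7.02 in red and 6.22, 6.20 and 5.91 in green arrays at E14.5. The colours were well apart, and the difference of 1.01 ± 0.16 (SE) had an interval of 0.66 to 1.36 and a limma adjusted p of 0.0028, which stayed between 0.0066 and 0.025 with 1 array left out. Sema6a, the class 6 semaphorin that binds plexin-A2 and plexin-A4, read 8.39, 8.34 and 8.32 in red and 7.54, 7.35 and 6.78 in green arrays. Its arrays did not overlap either, and its difference of 1.13 ± 0.37 (SE) was no smaller than that of Sema6d, but it did not pass the threshold (adjusted p 0.15). Sema6b, of the same class, read 6.65, 6.62 and 6.63 in red and 6.26, 6.22 and 6.32 in green arrays. Both colours were tight, and the difference of 0.36 ± 0.09 (SE; interval 0.17 to 0.56) passed at an adjusted p of 0.043. It did not pass in any of the 6 fits with 1 array left out (0.11 to 0.19), nor after quantile normalization (0.14). Sema6c, the fourth class 6 gene, differed by -0.21 with an interval of -0.49 to 0.07.

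Among class 4 genes, Sema4d, a ligand of class B plexins, had signals of 5.98, 5.89 and 6.03 in red and 5.70, 5.45 and 5.44 in green arrays at E14.5. Every red array was above every green array. The difference was 0.43 ± 0.11 (SE; interval 0.20 to 0.66; adjusted p 0.041). It passed without green replicate 1, and not without any of the other 5 arrays, where adjusted p reached 0.22. Sema4g, another transmembrane class 4 gene, read 7.04, 7.14 and 6.97 in red and 6.57, 6.77 and 6.51 in green arrays, with a difference of 0.44 and an adjusted p of 0.20. Sema7a, the membrane-anchored ligand of plexin-C1, read 6.50, 6.53 and 6.64 in red and 6.17, 6.23 and 5.91 in green arrays, with a difference of 0.45 and an adjusted p of 0.34. Both genes had red arrays above all green arrays.

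Plxna2, which encodes a receptor of class 6 semaphorins and a neuropilin partner, had the largest difference among the plexins at E14.5. It read 7.95, 8.41 and 8.88 in red and 9.60, 9.82 and 9.62 in green arrays. The red arrays were spread over almost 1 log2 unit, all below the green arrays, and the difference of -1.26 ± 0.39 (SE; interval -2.10 to -0.42) had an adjusted p of 0.12. Plxnc1 ran the other way with a difference of 0.36 (interval -0.22 to 0.93). For Plxna3, Plxnb3 and Plxnd1, receptors of classes A, B and D, the differences of -0.06, 0.02 and -0.01 had intervals within 0.34 of 0. Sema5a, a membrane-bound cue with thrombospondin repeats, read 8.02, 8.10 and 8.12 in red and 8.84, 8.93 and 8.73 in green arrays, a difference of -0.75 with an adjusted p of 0.18. Its red arrays all lay below its green arrays.

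The model shared 1 spread over both stages, although group mates correlated more closely at E14.5 than at E18.5. When the 6 arrays of E14.5 were fitted alone, 11 of the 30 genes passed, against 8.22% of all tested genes. Sema4d, Sema4g, Sema6a, Sema6b, Sema6d, Sema7a and Plxna1 were the 7 higher in red cells, and Sema3c, Sema5a, Plxna2 and Nrp2 the 4 lower. Adjusted p in that fit was 0.00017 for Nrp2, 0.0014 for Sema6d, 0.0018 for Sema5a, 0.0054 for Sema6a and 0.0065 for Plxna2. The SEs of these 5 genes were 0.12, 0.11, 0.09, 0.17 and 0.2 in that fit. In the fit of all arrays they were 0.22, 0.16, 0.26, 0.37 and 0.39, so the E14.5 intervals given above also carry the spread of E18.5. Sema3c, a secreted class 3 ligand, read 5.30, 5.23 and 5.56 in red and 5.87, 5.79 and 6.08 in green arrays. Its colours did not overlap, and adjusted p was 0.022 in the fit of this stage and 0.35 in the fit of all arrays.

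Marker genes of 5 lists passed the threshold between the colours at E14.5. The embryonic haemoglobin gene Hbb-y, the 1 of 6 erythroid markers measured, read 7.18, 6.21 and 6.43 in red and 5.12, 5.25 and 5.09 in green arrays (difference 1.46, limma adjusted p 0.00049). The mean of 7 thalamic neuron markers was 8.75 to 8.84 in red and 9.05 to 9.15 in green arrays, with red minus green differences past the threshold of -1.03 for Lhx2, -0.89 for Lhx9 and 1.06 for Rora. Gbx2, Slc17a6, Tcf7l2 and Foxp2 had differences of -0.77, -0.46, -0.08 and 0.03, none past the threshold. The mean of the 6 measured GABAergic and prethalamic markers was 5.73 to 5.99 in red and 5.62 to 5.71 in green arrays, with Gad2 higher by 0.82 in red cells. Only Gad2 of that list passed, and Gad1, Slc32a1, Dlx2, Dlx5 and Sp9 had differences of 0.11, 0.13, 0.09, 0.3 and -0.03. Of the 6 astrocyte markers Slc1a3 was higher in red cells by 1.01 (adjusted p 0.0052) and Slc1a2 had a difference of -0.79 (adjusted p 0.009), with list means of 5.35 to 5.55 in red and 5.43 to 5.49 in green arrays. Of the 6 progenitor markers Nes had a difference of -0.54 (adjusted p 0.035), with list means of 6.90 to 6.99 and 6.96 to 7.04. Their part in the differences of the semaphorin system was not tested.

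**Figure D2:**
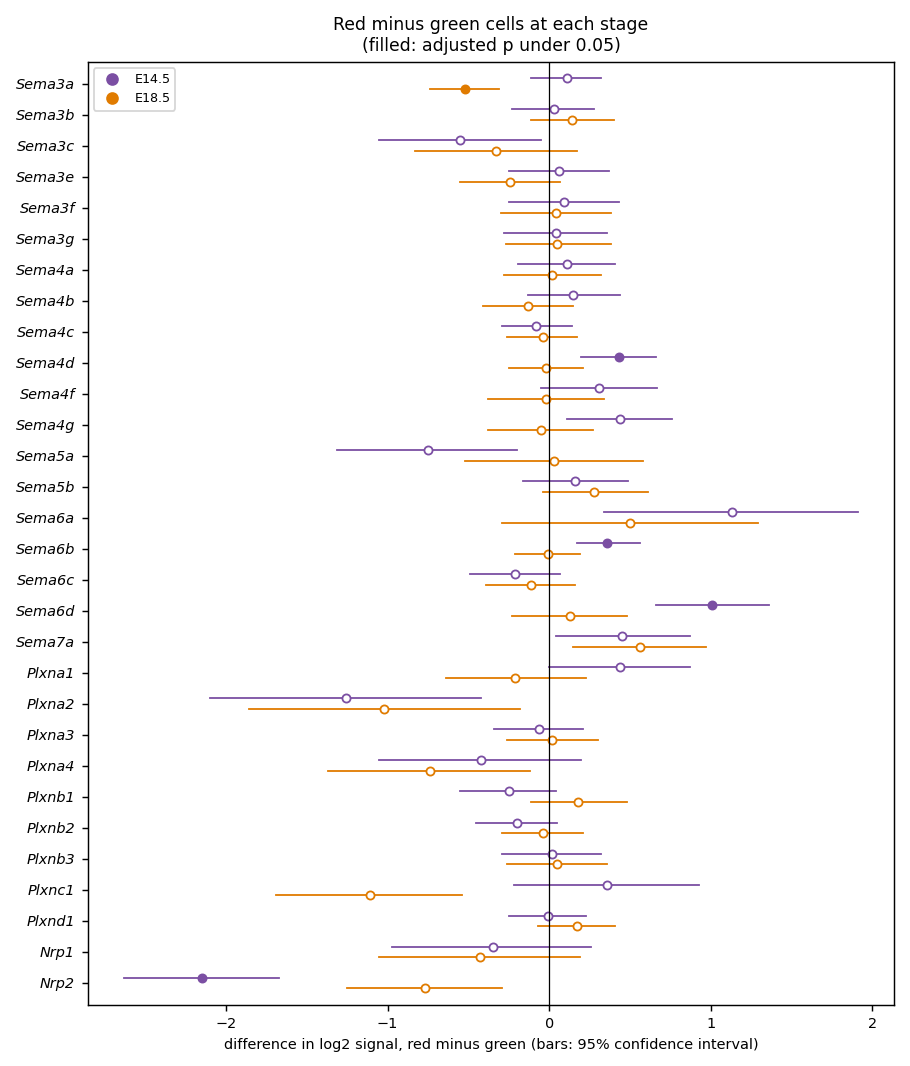
Difference in log2 signal between red and green cells (horizontal axis) for the 30 tested genes at E14.5 and E18.5, with 95% confidence intervals from limma. Filled points passed adjusted p 0.05, which were Nrp2, Sema6d, Sema4d and Sema6b at E14.5 and Sema3a at E18.5.

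At E18.5 the secreted ligand gene Sema3a was 1.44-fold lower in red than in green cells and was the only 1 of the 30 tested genes past the threshold. Over all tested genes the share past it was 0.613%. Unadjusted p was under 0.05 for 6 genes, Sema3a, Plxnc1, Nrp2, Sema7a, Plxna2 and Plxna4, and for 10% of all tested genes. The same 6 had red and green arrays that did not overlap, against 15.3% of all tested genes. The median red minus green difference was -0.02 over the 30 genes and -0.01 over all tested genes.

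Sema3a, best known as an axon repellent that acts through Nrp1 and class A plexins, read 5.65, 5.58 and 5.64 in red, 5.80, 5.82 and 5.82 in double labelled and 6.26, 6.19 and 5.99 in green arrays at E18.5. The 3 populations did not overlap, and the double labelled arrays lay between the others. Double labelled replicates 2 and 3 held exactly the same value. The Sema3a level was low, as the mean of all signals was 6.17 to 6.19 in the arrays of that stage. Its red mean of 5.62 lay between the list means of endothelial (5.32 to 5.6) and astrocyte markers (5.76 to 5.93) in the red arrays. The red minus green difference was -0.52 ± 0.10 (SE; interval -0.74 to -0.31) with a limma adjusted p of 0.027. Leaving out green replicate 3 kept the call (0.031). Leaving out red replicate 1, 2 or 3 gave 0.066, 0.094 and 0.062, leaving out green replicate 1 or 2 gave 0.15 each, and a fit of the 9 arrays of E18.5 alone gave 0.22. At E14.5 Sema3a read 5.44, 5.45 and 5.42 in red and 5.45, 5.17 and 5.36 in green arrays, which overlapped.

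The receptor genes with the largest differences at E18.5 had wider spreads and did not pass the threshold. Plxnc1, the receptor of Sema7a, read 7.96, 8.46 and 8.70 in red, 8.07, 9.32 and 9.21 in double labelled and 9.69, 9.48 and 9.28 in green arrays. Red arrays were lowest, green arrays were above all red arrays, and double labelled replicate 1, a narrow-range array, stood among the red ones. The red minus green difference was -1.11 ± 0.27 (SE; interval -1.69 to -0.54) with an adjusted p of 0.10. After quantile normalization it was -0.94 with 0.027, and without the narrow-range arrays -0.91 with 0.0029. Nrp2 read 6.84, 6.03 and 6.35 in red, 6.07, 6.82 and 6.66 in double labelled and 7.47, 7.12 and 6.95 in green arrays. Green arrays were above all others, and the red minus green difference of -0.77 ± 0.22 (SE; interval -1.25 to -0.29) had an adjusted p of 0.21. Without the narrow-range arrays it was -0.99, with an adjusted p of 0.0087.

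Plxna2 read 7.38, 8.33 and 8.08 in red, 6.53, 8.24 and 8.35 in double labelled and 8.74, 9.05 and 9.07 in green arrays at E18.5. Plxna4, a class A plexin that serves Sema3a and class 6 ligands, read 7.58, 8.47 and 8.2, then 7.33, 8.35 and 8.21, then 8.89, 8.84 and 8.74 in the same order. For both genes the narrow-range arrays were the lowest of their groups and all green arrays were above all others. The red minus green differences were -1.02 (adjusted p 0.40) and -0.74 (adjusted p 0.42). Sema7a ran the other way, with 7.62, 7.91 and 7.79 in red, 6.97, 7.56 and 7.59 in double labelled and 6.78, 7.33 and 7.51 in green arrays. Every red array exceeded every array of the other colours, by a mean of 0.56 over green (interval 0.15 to 0.97; adjusted p 0.33).

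The other genes did not pass between red and green cells at E18.5, and their intervals differed in width. Sema6b, Sema6d and Sema4d, which were higher in red cells at E14.5, had red minus green differences of -0.01 (interval -0.21 to 0.19), 0.13 (-0.23 to 0.48) and -0.02 (-0.25 to 0.21). Sema4c, Sema4a, Sema4f and Sema4g, all transmembrane class 4 ligands, had differences between -0.05 and 0.02. Plxna3 and Plxnb2 differed by 0.02 (-0.26 to 0.30) and -0.04 (-0.29 to 0.21). Sema6a, at 0.50, had a wide interval of -0.29 to 1.29. For Sema3b, Sema3e, Sema3g, Sema4b, Sema5b, Sema6c, Plxnb1, Plxnb3 and Plxnd1 the differences lay between -0.24 and 0.28, each with an interval that included 0. The same held for Sema3f (0.04), Sema5a (0.03) and Plxna1 (-0.21), and with wider intervals for Sema3c (-0.33, interval -0.83 to 0.17) and Nrp1 (-0.43, interval -1.05 to 0.19). Some of these genes held exactly equal values in red and green arrays. Sema5b was at 6.61 in 5 of the 9 arrays of E18.5. Sema6b (7.47), Sema4c (7.08), Sema3e (6.27) and Sema6c (7.62) each repeated 1 value in 4 arrays. The part of these repeats in the small differences and intervals was not tested.

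Some marker levels moved with colour at E18.5 too. The list mean of the thalamic neuron markers was 8.72 to 8.92 in red, 9.12 to 9.44 in double labelled and 9.40 to 9.53 in green arrays. Gbx2 and Lhx9 were lower in red than in green cells, with differences of -2.07 and -0.99 (limma adjusted p 0.0052 and 0.0037), and Lhx2 had -0.95 (adjusted p 0.05). Tcf7l2, Foxp2 and Slc17a6 had -0.45, -0.42 and -0.41, and Rora ran the other way at 0.65 (interval 0.29 to 1.02; adjusted p 0.15). None of these last genes passed the threshold. The GABAergic and prethalamic list was at 6.34 to 6.53 in red and 5.98 to 6.26 in green arrays, with Sp9 higher in red by 0.88 (limma adjusted p 0.018). Slc32a1, Gad2, Gad1 and Dlx2 of that list had differences of 0.53, 0.47, 0.44 and 0.04, and Dlx5 had -0.20, none past the threshold. Of the progenitor markers Hes1 and Sox2 had differences of 0.76 and 0.58 (limma adjusted p 0.11 each), and Pax6, Hes5, Nes and Vim had -0.18 to 0.1. Olig1 and Olig2 of the oligodendrocyte list had 0.5 and 0.51, against -0.07 and 0.16 for Sox10 and Cspg4. Rgs5 of the endothelial list had -0.94, and the other tested genes of that list had -0.18 to 0.16. None of these passed the threshold. Hbb-y was at 5.06 to 5.31 in red and green arrays. The part of these levels in the Sema3a difference was not tested.

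Double labelled cells were compared with both single-colour populations of E18.5, in comparisons that share arrays with each other and with red against green. None of the 30 genes passed in limma against green, where 0.0361% of all tested genes did. Unadjusted p was under 0.05 for 7 of the 30 and for 5.7% of all genes. None passed against red, where the share of all genes was 0.0902% and unadjusted p was under 0.05 for 1 of the 30 and for 4.52% of all genes. Sema3f, the secreted ligand of Nrp2, read 7.86, 7.69 and 7.22 in double labelled, 7.13, 7.35 and 6.85 in red and 7.13, 7.0 and 7.08 in green arrays. The double labelled arrays were above all green arrays and overlapped the red ones. The differences were 0.52 ± 0.16 (SE; adjusted p 0.57) over green and 0.48 ± 0.16 (SE; adjusted p 0.71) over red. Sema3a in double labelled cells differed from green by -0.34 (interval -0.55 to -0.12) and from red by 0.19 (-0.03 to 0.40). Plxna2 differed from green by -1.25 (-2.09 to -0.41; adjusted p 0.61), with double labelled replicate 1 at 6.53 far below its group mates, and by -0.66 without that array. Plxna4, Nrp2, Nrp1 and Plxnc1, all receptor genes, had differences from green of -0.86, -0.66, -0.67 and -0.61, with adjusted p of 0.67 to 0.84. These values rest in large part on double labelled replicate 1, without which they were -0.55, -0.44, -0.31 and -0.21. Sema7a in double labelled cells differed from red by -0.40 (-0.81 to 0.01).

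**Figure D3:**
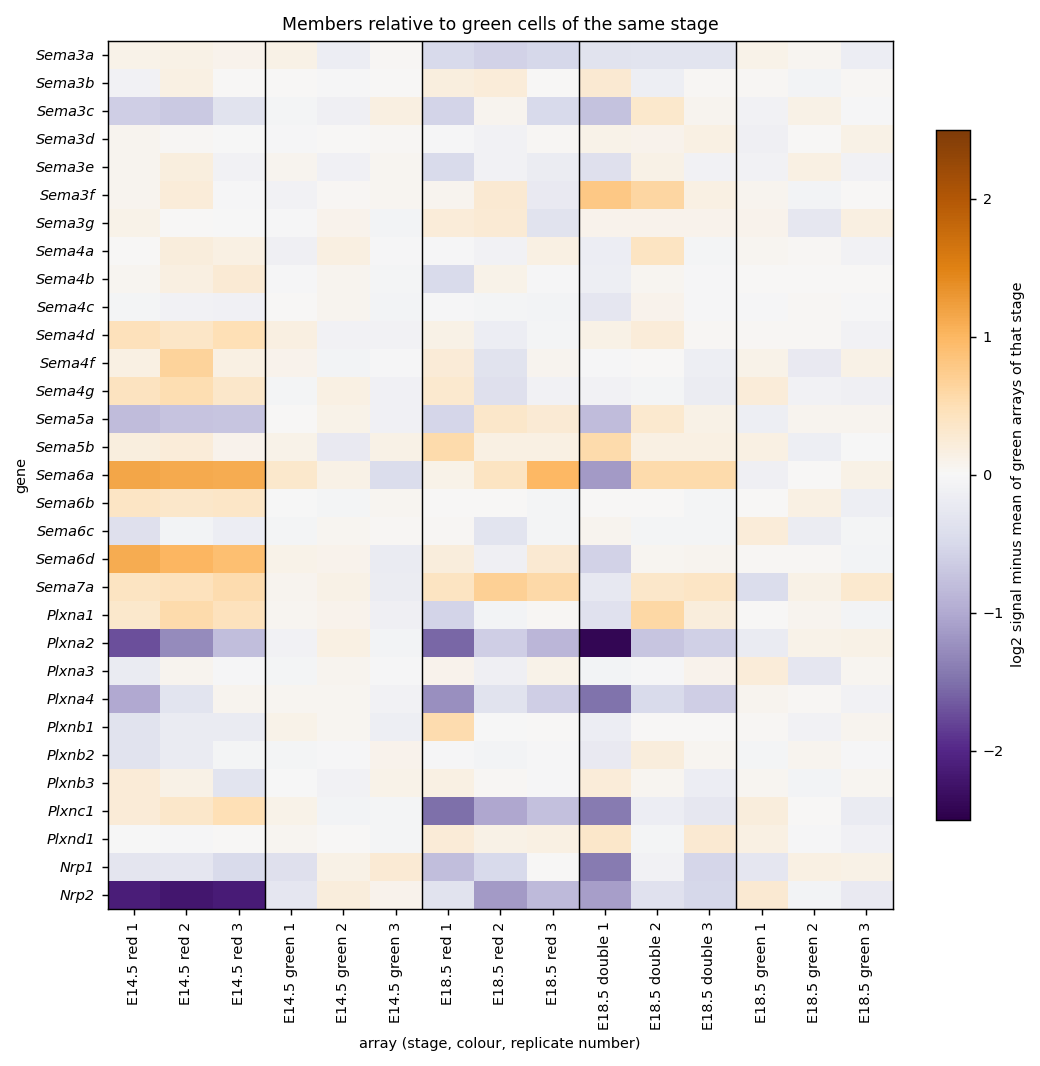
Log2 signal of the 31 genes (rows) in each array (columns), minus the mean of the 3 green arrays of the same stage. Orange is above and purple below that mean. The darkest cells of the E14.5 red columns are those of Nrp2, and the darkest cell of all is Plxna2 in E18.5 double labelled replicate 1, the narrow-range array with 6.53.

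Whether the red to green difference itself changed with stage was tested as the E18.5 difference minus the E14.5 difference. None of the 30 genes passed the threshold in limma, while 1.05% of all tested genes did. Unadjusted p was under 0.05 for 10 of the 30 and for 8.96% of all tested genes. The smallest adjusted p was that of Sema3a, whose difference of differences was -0.63 ± 0.14 (SE; adjusted p 0.051). For Nrp2 it was 1.38 ± 0.32 (SE; adjusted p 0.054), that is, a smaller deficit in red cells at E18.5 than at E14.5. Plxnc1 had -1.47 ± 0.38 (SE; adjusted p 0.092), with red arrays above green ones at E14.5 and below them at E18.5. For Sema6d it was -0.88 ± 0.23 (SE; adjusted p 0.10). Without the 2 narrow-range arrays 5 of the 30 and 486 of all 16635 genes passed, the 5 being Nrp2 and Sema5a upward (0.013 and 0.0011) and Sema3a, Sema6d and Plxnc1 downward (0.027, 0.012 and 0.0016).

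Within each colour, E18.5 was set against E14.5. In green cells 23 of the 30 genes passed as deposited, 20 of them higher at E18.5, while 73.5% of all tested genes passed and the median gene shifted by 0.61. After quantile normalization, which removes that shift, 16 passed, 7 higher and 9 lower, against 33.9% of all genes. In red cells 18 passed as deposited, 17 higher, against 72.4% of all genes and a median shift of 0.60. After quantile normalization 13 passed, 3 higher and 10 lower, against 27.6%. The median of the 30 genes as deposited was 0.80 in green and 0.42 in red cells. A rise or fall with stage is written only for genes that passed both ways in 1 direction.

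Among the semaphorins, Sema6d rose with stage in both colours. From the E14.5 values above it came to 8.23, 7.90 and 8.32 in red and 8.06, 8.06 and 7.97 in green arrays at E18.5. In green cells the rise was 1.92 as deposited and 1.18 after quantile normalization (adjusted p 4.5e-05), and in red cells it was 1.03 and 0.47 (adjusted p 0.032). Sema4f, a transmembrane class 4 gene, read 6.68, 6.34 and 6.70 in green cells at E18.5 and 5.15, 5.0 and 5.04 at E14.5. In red cells it read 6.81, 6.22 and 6.63 at E18.5 and 5.20, 5.71 and 5.21 at E14.5. The stages did not overlap in either colour, and the quantile-normalized differences were 0.82 (adjusted p 0.0028) in green and 0.55 (adjusted p 0.033) in red cells. Sema4g rose in green cells, to 8.35, 8.05 and 8.0 at E18.5, by 1.51 as deposited and 0.82 after normalization (adjusted p 0.012). In red cells its difference was 1.03 as deposited, which passed, and 0.48 after normalization, which did not (limma adjusted p 0.13).

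Sema3e, a secreted ligand that binds plexin-D1 directly, read 6.27, 6.49 and 6.27 in green cells at E18.5 and 5.01, 4.85 and 4.99 at E14.5. It rose by 1.40 as deposited and 0.74 after normalization (adjusted p 0.0026). In red cells its difference was 1.09 as deposited, which passed, and 0.44 after normalization, just short of the threshold (limma adjusted p 0.05). At E14.5 its values were near the low-signal filter. Its receptor gene Plxnd1 remained low in all arrays, with group means of 4.78 to 5.52, and its green difference of 0.54 as deposited came to -0.01 after normalization. Sema7a rose in red cells by 1.21 as deposited and 0.62 after normalization (adjusted p 0.0085). Its green difference was 1.11 as deposited, which passed, and 0.38 after normalization, which did not (limma adjusted p 0.069). Sema6b rose in green cells by 1.19 and 0.49 (adjusted p 0.0094). Its red difference was 0.82 as deposited, which passed, and 0.23 after normalization, which did not (limma adjusted p 0.22).

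Sema5a fell with stage in green cells. In red cells it passed both ways in the same direction, and its call was kept in 5 of 6 fits with 1 array left out. In green cells it read 7.15, 7.37 and 7.37 at E18.5 and 8.84, 8.93 and 8.73 at E14.5, with a difference of -1.54 as deposited and -2.15 after normalization (adjusted p 9.2e-06). In red cells it read 6.76, 7.64 and 7.57 at E18.5 and 8.02, 8.10 and 8.12 at E14.5, with differences of -0.75 and -1.38 (adjusted p 0.00064). The lowest red value at E18.5 was that of the narrow-range array, red replicate 1. Without it the red difference as deposited was -0.47 (adjusted p 0.085) and no longer passed, and without both narrow-range arrays the same difference had an adjusted p of 0.00098. Sema4c passed both ways in opposite directions, 0.26 as deposited and -0.40 after normalization in green cells, and 0.29 and -0.31 in red cells, so its direction rests on the scaling.

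Among the receptors, Nrp2 fell with stage in green cells, from the E14.5 values of 8.06 to 8.54 to 6.95 to 7.47 at E18.5. The difference was -1.16 as deposited and -1.77 after normalization (adjusted p 6.6e-05). In red cells Nrp2 was at 6.14 to 6.22 at E14.5 and 6.03 to 6.84 at E18.5, with differences of 0.22 and -0.42 that did not pass. Plxnc1 rose in green cells, from 8.25, 8.07 and 8.10 to 9.69, 9.48 and 9.28, by 1.34 as deposited and 0.71 after normalization (adjusted p 0.0078). In red cells it read 8.38, 8.48 and 8.63 at E14.5, and its difference was -0.13 as deposited and -0.67 after normalization. The change of its red to green difference with stage was -1.38 on the normalized scale (adjusted p 0.014). Plxna1, a class A receptor of several semaphorins, rose in green cells by 0.99 and 0.38 (adjusted p 0.039). Its red differences of 0.35 and -0.13 did not pass.

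Plxnb1, a receptor of Sema4d, read 6.84, 6.74 and 6.88 in green cells at E18.5 and 7.64, 7.59 and 7.39 at E14.5. Its difference was -0.72 as deposited and -1.34 after normalization (adjusted p 3.1e-05). The other array row of Plxnb1 had a difference of 0.23 as deposited, so the rows disagree in sign. With the mean of both rows the difference was -0.24 (adjusted p 0.08) and the call was lost. The other row of Plxna1 had 0.82, in the same direction as the row used.

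**Figure D4:**
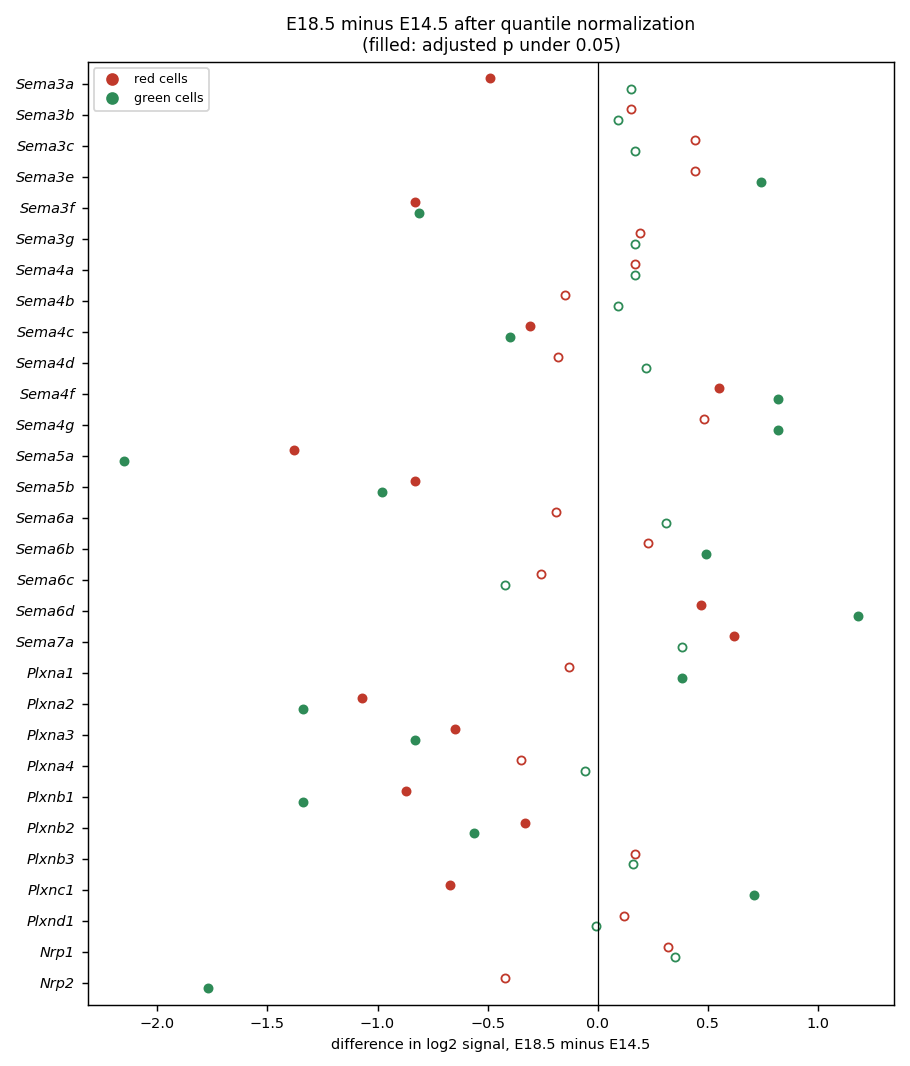
Difference in log2 signal between E18.5 and E14.5 after quantile normalization (horizontal axis) for the 30 tested genes in red and in green cells. Filled points passed adjusted p 0.05 in limma, 13 in red and 16 in green cells. Sema6d lies to the right and Sema5a to the left of 0 in both colours, and Plxnc1 lies on opposite sides.

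Coreceptors and signalling partners of the system were followed as a list of 45 genes, of which 42 were tested. At E14.5, 2 of the 42 passed in limma, against 3.52% of all tested genes. Unadjusted p was under 0.05 for 7 of the 42 and for 11.9% of all tested genes. Farp1, a FERM-domain exchange factor for small GTPases, read 8.06, 8.26 and 8.11 in red and 7.48, 6.92 and 7.07 in green arrays. It was higher in red cells by 0.98 ± 0.15 (SE; adjusted p 0.0018). Cntn2, an axonal adhesion molecule of the immunoglobulin family, read 6.43, 6.64 and 6.56 in red and 7.03, 7.11 and 7.45 in green arrays, and was lower in red cells, with a difference of -0.65 ± 0.12 (SE; adjusted p 0.0083). Neither gene had red and green arrays that overlapped at that stage.

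At E18.5 none of the 42 partners passed in limma in any of the 3 comparisons. Over all tested genes 0.613%, 0.0361% and 0.0902% passed for the red to green, the double to green and the double to red comparison. In that order, 3, 3 and 0 partners had an unadjusted p under 0.05, against 10%, 5.7% and 4.52% of all tested genes. The smallest p values belonged to Mical2 (0.49, adjusted p 0.27) and Erbb2 (0.32, adjusted p 0.48) in red minus green. Mical2 is a relative of the plexin effector Mical1, and Erbb2 is a receptor tyrosine kinase that can couple to class B plexins. Against green, double labelled cells had Met at -0.43 (adjusted p 0.83), the kinase partner of plexin-B1, and the adaptor gene Tyrobp at 0.36 (adjusted p 0.84). Against red they had Tiam1 at 0.24 and Itga1 at -0.19, both with an adjusted p of 1. The change of the red to green difference with stage passed for none of the 42, against 1.05% of all tested genes. Unadjusted p was under 0.05 for 3 of the 42 and for 8.96% of all tested genes. The smallest p values for this change were those of Farp1 at -0.77 (limma adjusted p 0.11) and Cntn2 at 0.59 (adjusted p 0.17).

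Between stages, 37 of the 42 partners passed in green and 32 in red cells as deposited, all higher at E18.5, against 73.5% and 72.4% of all tested genes. After quantile normalization 11 passed in green cells, 6 higher and 5 lower, against 33.9% of all genes, and 9 in red cells, 4 higher and 5 lower, against 27.6%. No partner that was lower after normalization was lower past the threshold as deposited, so those named are the ones that rose both ways. In green cells Farp1, Rap1b, Ret and Met rose by 2.06, 1.54, 1.46 and 1.33 as deposited and by 1.38, 0.92, 0.76 and 0.71 after normalization. In red cells Ret, Mical2, Farp1 and Rap1b rose by 1.48, 1.47, 1.28 and 1.14 as deposited and by 0.89, 0.88, 0.76 and 0.63 after normalization. Rap1b encodes a small GTPase on which the plexin GAP domain acts, and Ret is the signalling receptor of the GDNF family.

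Likeness among the genes of the system was described over the 9 arrays of E18.5 for the 5 genes that passed within a stage. The profile of Sema3a was most like those of Nrp2, Plxnc1 and Plxna4, with Pearson correlations of 0.81, 0.78 and 0.63. Nrp2 was most like Sema3a, Plxnc1 and Sema4g (0.81, 0.72 and 0.62). Without the 2 narrow-range arrays the Sema3a values were 0.96, 0.92 and 0.84 over 7 arrays. Sema6d was most like Sema6a, Sema4c and Nrp1 (0.83, 0.72 and 0.62), and without the narrow-range arrays these came to 0.62, -0.20 and 0.26. Sema4d was most like Sema4g, Sema3f and Sema6c (0.54, 0.53 and 0.50), and the highest value for Sema6b was 0.28, with Sema4d. Without the narrow-range arrays the Sema4d values came to 0.51, 0.52 and 0.42. For Sema6b the value with Sema4d came to 0.27, and that with Sema3e went from 0.24 to 0.64. These points share the 3 populations and the array range, so they describe the arrays and were not tested.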

How the data were processed

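RNA of sorted thalamic cells was measured on 15 Affymetrix arrays. Per the labels, amplification started from 10 ng (Nugen Ovation Pico WTA System V2). The deposited values are log2 signals per transcript cluster, made in Affymetrix Expression Console per the submitters' processing notes. Its version and algorithm are not given in the sources used here.

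Of 33794 transcript clusters, 23521 named 1 gene, giving 22180 genes. Genes in the lowest 25% by mean signal (below 5.07) were dropped, which left 16635. In limma 3.58.1 (R 4.3.3), 1 mean per group was estimated from all 15 arrays (10 residual degrees of freedom, 13.9 once moderated). Moderated tests were two-sided, with Benjamini-Hochberg adjustment across the 16635 genes and 0.05 as the threshold. The script was tested on simulated data. SEs and intervals use 1 spread per gene estimated over all 15 arrays, and the 3 arrays a group limit their precision. Replicates are called biological in the labels.

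The listed genes, the partner and marker lists and the tests were chosen with earlier results of these data known. Array values are given for genes past the threshold within a stage or in the stage difference, for the 3 smallest p of each such comparison, and for up to 5 genes per direction that passed between stages both as deposited and after quantile normalization. Partners are named where they passed within a stage, otherwise the 2 smallest p, and between stages up to 4 per direction. Other genes named with values were chosen after their values were seen. Likeness is Pearson's correlation.

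Deviations from group means of same-numbered arrays correlated at 0.487 to 0.669 between E18.5 red and double labelled cells. Between red and green cells of E18.5 they correlated at 0.058 to 0.465, and between green and double labelled cells at 0.047 to 0.414. At E14.5 the correlations were 0.069 to 0.265. Differently numbered arrays had -0.61 to 0.43 between red and double labelled cells of E18.5, and -0.42 to 0.215 between red and green. They had -0.394 to 0.137 between green and double labelled cells, and -0.256 to 0.03 at E14.5. The highest same-numbered value, 0.669, was that of the 2 narrow-range arrays. The reported tests left replicate number out, and it was used only in the replicate block. Alternatives were quantile normalization, no filter, the mean of a gene's rows, a replicate block, fits per stage, and leaving out arrays. Promoter windows came from RefSeq on GRCm38.p6.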

Additional observations from a re-analysis of the deposited data

Results flagged for a closer look

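The red minus green difference of Hbb-y, an embryonic haemoglobin gene used as an erythroid marker, was 1.46 at E14.5 and 0.10 at E18.5. The difference between the stages was -1.36 (limma adjusted p 0.022), which is why it is listed here. None of the 30 tested semaphorin, plexin and neuropilin genes passed that test.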

How the results depend on the processing

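The counts of semaphorin, plexin and neuropilin genes past the threshold moved with the processing as follows, and the cause was not tested. In E18.5 red against green, where 1 gene passed, 2 passed after quantile normalization, 2 with a replicate block, 3 without the narrow-range arrays and 0 in a fit of that stage alone, and 0 to 1 with 1 array left out. Counts over all genes were 102 as reported and 143, 234, 213 and 12 in those settings, and 51 to 100 with 1 array left out. In E14.5 red against green, where 4 passed, 11 passed in a fit of that stage alone and 2 to 3 with 1 array left out. Counts over all genes were 586 as reported, 1367 in the fit of that stage alone and 247 to 527 with 1 array left out. With the replicate block 6 passed (842 of all genes against 586): Sema6b no longer did (adjusted p 0.061), and Sema6a, Sema5a and Plxna2 did (0.027, 0.014 and 0.012). After quantile normalization 4 passed (654 of all genes), with Sema6a (0.043) in place of Sema6b (0.14). For the stage difference, where 0 passed, 1 passed after quantile normalization, 1 with no filter on low values, 1 with the mean of a gene's rows, 1 with a replicate block and 5 without the narrow-range arrays, and 0 to 2 with 1 array left out. Over all genes 175 passed as reported and 207, 176, 192, 343 and 486 in those settings, and 76 to 214 with 1 array left out. In double labelled against red cells the count was 0 with the replicate block, as without it. Between stages, quantile normalization turned the sign of 10 genes in red and 5 in green cells. Of those that had passed as deposited, these were Sema4b (-0.15), Sema4c (-0.31), Sema4d (-0.18) and Sema6c (-0.26) in red cells and Sema4c (-0.40) and Plxnd1 (-0.01) in green cells. Sema3a in red cells (-0.49) and Plxnb2 in red (-0.33) and green cells (-0.56) passed only after normalization, with the sign turned. Of the genes called within a stage, Nrp2 and Sema6d at E14.5 kept their call in each of the 6 fits with 1 array left out. With 3 arrays a group, small differences could not be shown for genes with wide intervals. The effect of the repeated identical values at E18.5 on the differences, SDs and intervals was not tested.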
